A study of Mus musculus with 4 samples.

Results

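The heat shock proteins and chaperones of mouse kidney were followed in 81 genes, out of 29190 genes in the deposited count table. They are the protein-coding genes whose symbols mark them as heat shock factors (Hsf1, Hsf2), small heat shock proteins (Hspb), HSP70 and HSP110 (Hspa, Hsph), HSP90, HSP60 and HSP10 (Hspd1, Hspe1), J proteins (Dnaja, Dnajb, Dnajc), subunits of the chaperonin CCT (Cct) or BAG co-chaperones (Bag1 to Bag6). Hspa5, Hsp90b1 and Dnajb9, which serve the unfolded protein response of the endoplasmic reticulum, were left out. Cct6a was also outside, because the deposited table types it as a processed transcript. Kidney RNA came from 8-week-old male C57 mice, with 2 libraries after a single agent, cisplatin at 30 mg/kg, and 2 libraries after physiological saline. The protocol names 24 h and 48 h of exposure, and the sources used here do not say which of them the cisplatin libraries represent. Whether a library held tissue of 1 mouse or of several is not given either.

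Chaperones bind proteins that are unfolded and help them to fold, to be rebuilt or to be degraded. HSP70 works in cycles of ATP binding and hydrolysis that J proteins start and BAG proteins end, HSP90 matures kinases and receptors, and CCT encloses actin, tubulin and other clients in a double ring. When unfolded protein accumulates, the transcription factor HSF1 is released from chaperones and switches on the inducible members through heat shock elements, which are inverted repeats of GAA. In kidney, HSP70 and the small HSP27 (Hspb1) are known from the tubule epithelium under ischaemic and toxic stress.

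The libraries held 20662475 and 23150274 counts after cisplatin and 21483564 and 27122403 after saline. Abundance is given in CPM (read counts relative to library size, with library sizes scaled by the trimmed mean of M values, TMM), and n is 2 libraries in each group throughout. Chaperone genes took 0.957 and 0.91% of all counts in the cisplatin libraries, against 0.844 and 0.903% in the saline libraries. The DNA damage response gene Cdkn1a, a check of the treatment, stood at 316 and 344 CPM after cisplatin, against 1.89 and 2.46 CPM after saline. The kidney markers listed were present in both groups, with summed levels of 1990 and 1956 CPM for 5 proximal tubule genes after cisplatin, against 13282 and 13528 CPM after saline. Other cell markers moved as well: all 4 tested neutrophil genes were higher (summed level of 29.6 and 27.5 CPM after cisplatin, against 3.52 and 2.66 CPM after saline), 3 of 5 macrophage genes were higher and 1 lower (152 and 164 CPM, against 63.0 and 66.4 CPM), all 3 podocyte genes were higher (459.7 and 479 CPM, against 321 CPM in each saline library) and all 4 erythrocyte genes were lower. The part of these cells in the chaperone values was not tested.

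Chaperone transcripts changed in both directions, family by family. Of the 81 genes, 77 passed the filter on low counts and were tested, and 33 were higher and 31 lower after cisplatin (edgeR quasi-likelihood F test, false discovery rate of 0.05 by Benjamini-Hochberg). Over all 17419 tested genes 73.6% were called, 37.2% higher and 36.4% lower, so that neither the 42.9% of tested chaperones that rose nor the 40.3% that fell stands far from the table as a whole. Groups did not overlap in 69 of the 77, against 86.3% of all tested genes. The median log2 fold change was -0.0006 for the chaperones and 0.04 for all tested genes. At least a 2-fold rise was called for 12 chaperones and at least a 2-fold fall for 14, against 19.2% and 16.1% of all tested genes. With library size alone as the scaling, 44 were higher and 22 lower, because that scaling moves the median of all tested genes to 0.41. All 33 rises held under each of the 3 other scalings, and 22 of the 31 falls did. Scaling by upper quartiles also raised the median of all tested genes, to 0.16, while relative log expression left it at 0.03. An upward shift helps rises to hold and removes small falls. The counts of held rises and held falls therefore cannot show which direction is the more robust.

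**Figure D1:**
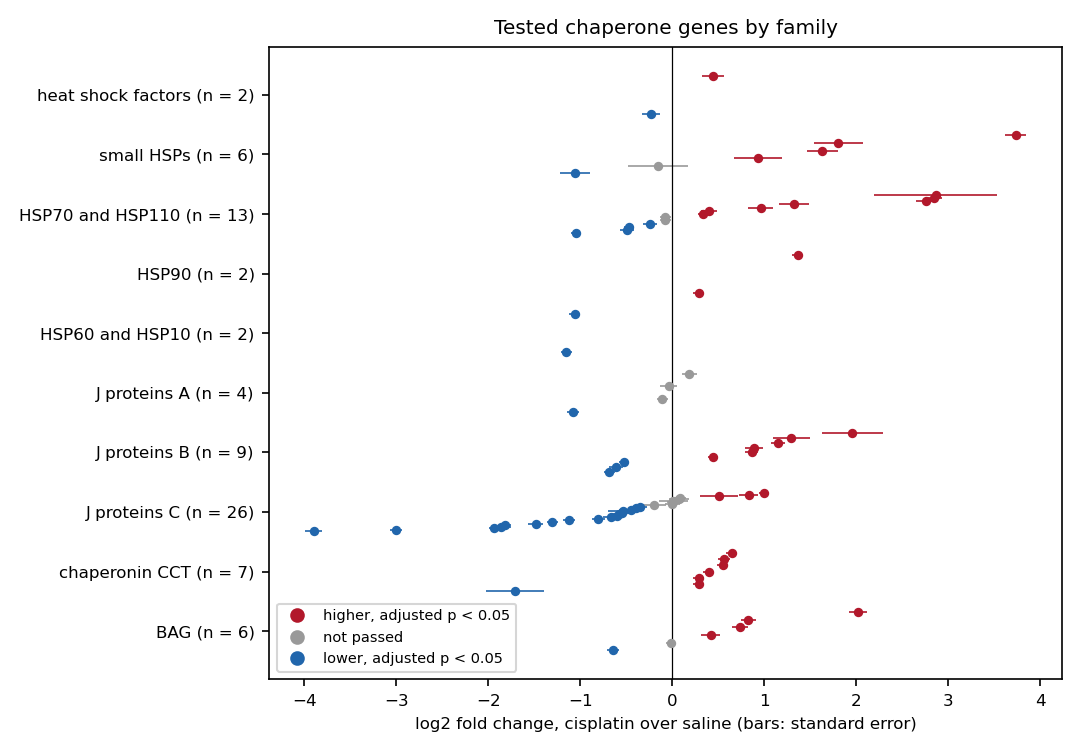
Each point is the log2 fold change (cisplatin over saline) of 1 of the 77 tested chaperone genes with its standard error, placed by family and coloured by the edgeR call. Points spread from -3.90 (Dnajc6) to 3.73 (Hspb1), HSP90 lies to the right of 0, HSP60 and HSP10 lie to the left, and most C-type J proteins lie to the left.

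The 4 genes that were not tested had few reads. Cct8l1 had 0 and 3 counts after cisplatin and 0 in each saline library, and Hspb9 had 6 and 3 after cisplatin and 0 in each saline library. Dnajb13 had 4 and 5 counts after cisplatin, against 0 and 1 after saline, and Dnajb7 had 4 and 1, against 2 and 1. A count of 3 corresponded to between 0.116 and 0.162 CPM, so these values rest on reads near the floor. Hspb9 was called higher with no filter (edgeR adjusted p = 0.0498) and on log2(FPKM + 0.1) (limma adjusted p = 0.0306), but not on log2(FPKM + 1) (0.0553). Dnajb13 was called higher in both FPKM fits (limma adjusted p = 0.0289 and 0.0272) and not in the edgeR fit with no filter (0.174).

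Both regulators themselves moved by less than 2-fold. Hsf1, the factor that drives the heat shock response, stood at 11.98 and 12.22 CPM in cisplatin libraries, against 8.93 and 8.89 CPM in saline libraries. Its log2 fold change was 0.44 (SE 0.12; adjusted p = 0.00313, edgeR quasi-likelihood). The groups stood further apart in deposited FPKM, with 4.15 and 4.16 for Hsf1 after cisplatin, against 2.42 and 2.66 after saline. Hsf2, a related factor of development and proteasome stress, stood at 20.4 and 17.9 CPM after cisplatin, against 21.9 and 23.0 CPM after saline, a log2 fold change of -0.23 (SE 0.10) with an adjusted p of 0.0403 by the same edgeR test, the largest among the called chaperones. The Hsf2 call ended with either of 2 libraries left out (adjusted p = 0.309 without cisplatin replicate 2 and 0.143 without saline replicate 2, edgeR). On the deposited FPKM scale and with library size alone its sign turned, to 0.04 and 0.13.

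Chaperones listed as heat-inducible split into a group that rose and a group that fell. Of the 15 members listed as inducible by heat, 10 were higher and 5 were lower after cisplatin, with log2 fold changes from -1.15 to 3.73 and a median of 0.86. The rises were 7 times at least 2-fold and the falls 4 times at least 2-fold. Over all tested genes 37.2% were called higher and 36.4% lower, and 19.2% and 16.1% at least 2-fold higher and lower. The largest rises were those of Hspb1, Hspa1b, Hspa1a, Bag3 and Hspb8. These 15 are known as targets of HSF1 or as genes induced by heat in mammalian cells, and the list was written with earlier results of these data known. It also holds Hspa8 and Hsp90ab1, the constitutive forms of cytosolic HSP70 and HSP90.

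Hspb1, which encodes the small heat shock protein HSP27 that guards actin and holds unfolded clients (chr5:135887919-135889563, plus strand), rose by the most of all tested chaperones. It stood at 46.7 and 49.5 CPM after cisplatin, against 3.73 and 3.52 CPM after saline, a 13.3-fold difference (log2 3.73, SE 0.11; adjusted p = 1.82e-16, edgeR quasi-likelihood). Both cisplatin libraries lay far above both saline libraries, and the saline values rested on 69 and 86 counts.

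Hspa1b and Hspa1a encode the stress-inducible HSP70 and lie near each other on chromosome 17 (Hspa1b at chr17:34956436-34959238 and Hspa1a at chr17:34969190-34972156, minus strand, GRCm38). Hspa1b stood at 68.1 and 64.5 CPM after cisplatin, against 9.69 and 8.81 CPM after saline, a 7.19-fold difference (log2 2.85, SE 0.09). Hspa1a stood at 44.5 and 41.7 CPM after cisplatin, against 6.82 and 6.02 CPM after saline, a 6.75-fold difference (log2 2.75, SE 0.11). The groups did not overlap for either gene. Their split is uncertain: 38.1% of the 150-base windows of the Hspa1a transcript occur unchanged in the Hspa1b transcript, and the sources used here do not say how reads that fit both genes were counted. A gene model on the opposite strand, Gm20481, shares 564 exonic bases with Hspa1a.

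Bag3, the co-chaperone that links HSP70 to selective autophagy, stood at 39.1 and 40.5 CPM in cisplatin libraries, against 9.96 and 9.67 CPM in saline libraries (4.06-fold, log2 2.02, SE 0.10). Hspb8, the small heat shock protein that acts together with BAG3, stood at 11.7 and 9.52 CPM after cisplatin, against 3.19 and 3.61 CPM after saline (3.10-fold, log2 1.63, SE 0.17). Both partners of this pair were thus higher in each cisplatin library than in each saline library. Dnajb1, the main J protein partner of inducible HSP70, had 59.0 and 61.5 CPM after cisplatin, against 32.6 and 33.6 CPM after saline (log2 0.86, SE 0.07). Dnajb4, a close relative of Dnajb1, had 77.7 and 70.1 CPM after cisplatin, against 30.7 and 35.5 CPM after saline (log2 1.15, SE 0.08).

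Against these, 4 members of the list fell at least 2-fold. Hspa8, the constitutive cytosolic HSP70 that also strips clathrin from vesicles (chr9:40800984-40810087, plus strand), had 1070 and 1023 CPM after cisplatin, against 2073 and 2250.0 CPM after saline (log2 -1.05, SE 0.06). It remained the most abundant chaperone transcript in both groups, with a mean of 303 FPKM after cisplatin and 520.2 FPKM after saline, FPKM being the authors' value per length. The snoRNA genes Snord14c, Snord14d and Snord14e lie in Hspa8 on the same strand, and whether their reads were counted for the host is not given. Dnaja1, a J protein partner of Hspa8, had 137 and 134 CPM after cisplatin, against 277 and 296 CPM after saline (log2 -1.08, SE 0.06). Hspa4l, an HSP110 family member, was lower by a little, at 40.2 and 37.1 CPM after cisplatin and 46.6 and 45.0 CPM after saline (log2 -0.24, SE 0.07). That call ended without cisplatin replicate 2 (edgeR adjusted p = 0.101), and its sign turned with library size alone (0.12) and in the FPKM fits (0.02).

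**Figure D2:**
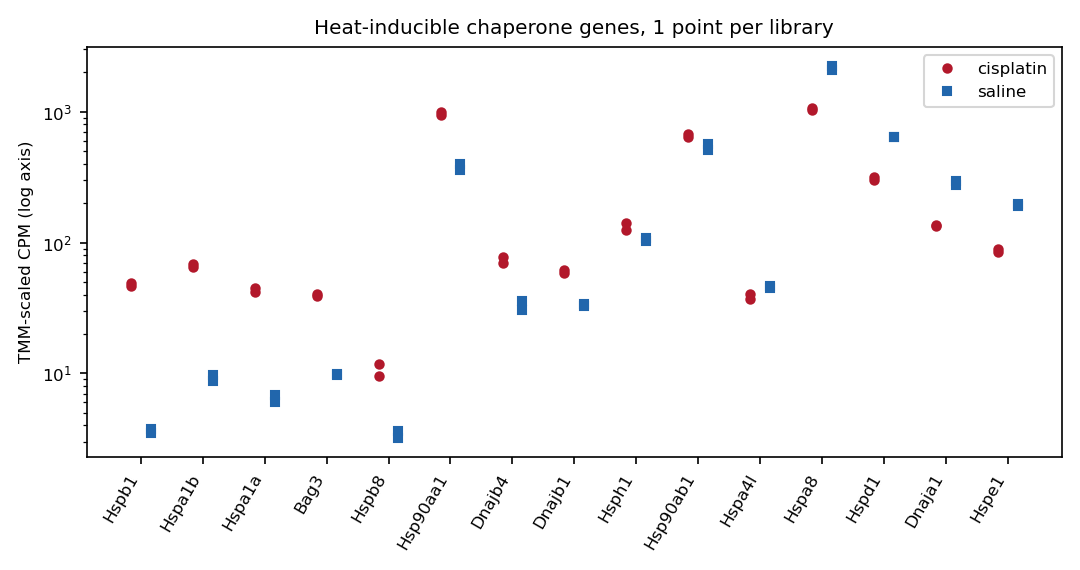
TMM-scaled CPM on a log axis of the 15 heat-inducible chaperone genes, with 1 point per library, cisplatin in red circles and saline in blue squares, ordered by log2 fold change. From Hspb1 to Hsp90ab1 the cisplatin points lie above the saline points, and from Hspa4l to Hspe1 they lie below.

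The balance between the HSP70 forms changed with this. On the FPKM scale, Hspa8 exceeded the sum of Hspa1a and Hspa1b 11.4 and 11.5 times in the cisplatin libraries, against 150.5 and 182 times in the saline libraries. Hspa8 thus outweighed the inducible pair in all 4 libraries. Of 13 tested HSP70 and HSP110 genes 7 rose, 4 fell and 2 did not pass. Among all tested genes, 37.2% were called higher and 36.4% lower. Hsph1, the HSP110 that exchanges nucleotide on HSP70, had 141 and 126 CPM after cisplatin, against 108 and 103 CPM after saline (log2 0.34, SE 0.06). Hspa12b, an endothelial HSP70 relative, had 9.45 and 11.6 CPM after cisplatin, against 4.33 and 4.14 CPM after saline (log2 1.32, SE 0.16). Among 5 endothelial markers 3 rose and 1 fell in these libraries, with a summed level of 564 and 559 CPM after cisplatin and 486 and 480.1 CPM after saline. The part of these cells in the Hspa12b difference was not tested. Hspa12a fell (log2 -0.50, SE 0.07), although it was not called with library size alone (-0.13) or in the FPKM fits (-0.22 and -0.18). Hspa2 (log2 0.96) and Hspa14 (0.39) rose, and Hspa4 and Hspa13 did not pass (log2 -0.08 and -0.07, edgeR adjusted p = 0.25 and 0.285), whereas library size alone called both as higher (log2 0.29 each). Hspa1l, singled out after its values were seen, had 11 and 33 counts after cisplatin and 2 and 3 after saline, lies opposite to the antisense gene Gm10501, and was no longer called without cisplatin replicate 2 (edgeR adjusted p = 0.0915).

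HSP90 transcripts rose, and the inducible form overtook the constitutive one. Hsp90aa1, the inducible cytosolic HSP90 alpha (chr12:110690605-110702728, minus strand), had 1002 and 940.4 CPM in cisplatin libraries, against 359 and 396 CPM in saline libraries (2.57-fold, log2 1.36, SE 0.06; adjusted p = 1.06e-13, edgeR quasi-likelihood). Hsp90ab1, the constitutive HSP90 beta, had 646 and 669.9 CPM after cisplatin, against 567 and 511 CPM after saline (log2 0.29, SE 0.06). Compared per length, Hsp90aa1 stood at 1.16 and 1.05 times the FPKM of Hsp90ab1 in the cisplatin libraries, against 0.472 and 0.577 times in the saline libraries. By mean FPKM, Hsp90aa1 ranked 2 among the 81 chaperones after cisplatin and 8 after saline.

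Most mitochondrial chaperones of the list fell. Hspd1 (HSP60) and Hspe1 (HSP10) form the folding chamber of the mitochondrial matrix. Their genes overlap head to head on opposite strands of chromosome 1 (Hspd1 at chr1:55077835-55088243 and Hspe1 at chr1:55088132-55091307), with 112 exonic bases in common. Hspd1 had 315 and 299 CPM after cisplatin, against 644 and 638 CPM after saline (log2 -1.06, SE 0.06), and Hspe1 had 89.2 and 85.2 CPM after cisplatin, against 191 and 197 CPM after saline (log2 -1.15, SE 0.06). The FPKM of Hspe1 relative to Hspd1 hardly moved, at 0.888 and 0.891 after cisplatin and 0.926 and 0.968 after saline. Hspa9, the matrix HSP70 mortalin, had 709 and 693 CPM after cisplatin, against 973 and 965 CPM after saline (log2 -0.47, SE 0.05). With library size alone and in both FPKM fits Hspa9 no longer passed, at log2 values of -0.10, -0.20 and -0.19. Of the 7 mitochondrial members 6 fell, with a median log2 fold change of -1.06, against 36.4% of all tested genes called lower. In both FPKM fits 4 of the 7 were lower and 0 higher, and with library size alone 4 were lower and 1 higher. Dnaja3, the matrix J protein, did not pass in the main fit (edgeR adjusted p = 0.0505). Dnaja3 differed between the saline libraries (83.2 and 108 CPM) more than between the cisplatin libraries (112 and 106 CPM), and it passed as higher without saline replicate 2 (log2 0.38; edgeR adjusted p = 1.42e-07). It also passed as higher with upper-quartile scaling (log2 0.30), library size alone (0.55), all counted genes kept (0.17), a minimum of 1 CPM in 2 libraries (0.21) and among protein-coding genes alone (0.23).

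Matches to the HSF1 binding motif lay beside genes of both directions. RefSeq promoter windows on GRCm38.p6, running from 250 bases before to 50 bases after a gene start, were found for 65 of the 81 genes. The search used 2 inverted units, GAANNTTC or TTCNNGAA, which read the same on both strands, and 3 inverted units, which are GAANNTTC followed by NNGAA or, on the other strand, TTCNNGAA followed by NNTTC. Every match to 3 units therefore also contains 2 overlapping matches to 2 units. A 3-unit match was found in 4 chaperone genes, or 6.15% of the 65, against 0.662% of the 27025 genes in the promoter table. At least 2 units were present in 18, or 27.7%, against 17.0% of all genes. Hspd1 and Hspe1, Dnajb6 and Hsph1 held the 3-unit matches, and of these Hsph1 was higher after cisplatin and the other 3 were lower. Among the 18 with 2 units, 10 rose, 4 fell, 3 did not pass and 1 was not tested, and among the 47 without, 17 rose, 18 fell, 9 did not pass and 3 were not tested. Over all tested genes 37.2% were called higher and 36.4% lower, and the split by match was not tested. The 16 genes with no entry in the promoter table comprised 6 that rose, 9 that fell and 1 that did not pass. Hsp90aa1, Hsp90ab1 and Hspa8 are among them. A match describes the letters of this window, not bound HSF1.

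The windows below are shown because they carry the matches next to genes of opposite direction, with the matched units in capitals, each written 5' to 3' on the strand of its gene.
Hspd1, chr1:55087953-55088102, minus strand, lower after cisplatin: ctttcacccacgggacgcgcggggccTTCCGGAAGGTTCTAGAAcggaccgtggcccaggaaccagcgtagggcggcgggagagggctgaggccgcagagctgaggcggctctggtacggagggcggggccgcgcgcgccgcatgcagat
Dnajb6, chr5:29735798-29735897, plus strand, lower after cisplatin: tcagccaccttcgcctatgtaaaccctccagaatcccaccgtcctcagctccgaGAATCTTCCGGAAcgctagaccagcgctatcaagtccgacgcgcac
Hsph1, chr5:149636286-149636415, minus strand, higher after cisplatin: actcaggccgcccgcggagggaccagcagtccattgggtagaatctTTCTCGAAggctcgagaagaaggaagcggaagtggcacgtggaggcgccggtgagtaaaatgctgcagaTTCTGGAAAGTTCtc
Hspb1, chr5:135887769-135887918, plus strand, higher after cisplatin: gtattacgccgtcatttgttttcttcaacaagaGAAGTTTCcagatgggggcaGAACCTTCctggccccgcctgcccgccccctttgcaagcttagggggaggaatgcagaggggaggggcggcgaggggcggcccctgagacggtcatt
Hspa1b, chr17:34959239-34959388, minus strand, higher after cisplatin: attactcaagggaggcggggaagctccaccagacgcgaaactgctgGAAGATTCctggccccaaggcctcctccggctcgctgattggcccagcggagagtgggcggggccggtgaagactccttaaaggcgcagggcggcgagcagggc
The Hspd1 line comes from 1 of 2 RefSeq entries for that gene, and the other, which begins further upstream, held no match. The start of the entry shown lies 216 bases from the RefSeq start of Hspe1 on the opposite strand, so that the capitals of the Hspd1 line also lie in the promoter window of Hspe1. The windows of Hspa1a and Hspa1b were identical at 296 of 300 bases. Hspb1, with the largest rise, held 2 separate pairs of units and no 3-unit match in this window.

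Most CCT subunits rose, each by less than 2-fold. The chaperonin CCT, also called TRiC, is a ring of 8 different subunits, of which 6 (Cct2, Cct3, Cct4, Cct5, Cct7 and Cct8) belong to the genes described here, together with Cct6b, a subunit variant known from testis. All 6 were higher after cisplatin, with log2 fold changes of 0.29 to 0.64, and the groups did not overlap for any of them. Over all tested genes 37.2% were called higher, and the groups did not overlap in 86.3%. Cct7 had 189 and 190.1 CPM after cisplatin, against 123 and 119.7 CPM after saline (log2 0.64, SE 0.06). Cct5, the most abundant subunit transcript after cisplatin, had 314 and 297 CPM, against 212 and 205 CPM after saline (log2 0.55, SE 0.06). Cct3 had 189 and 171 CPM after cisplatin, against 115 and 129 CPM after saline (log2 0.56, SE 0.07), and Cct2 had 246 and 234 CPM, against 176 and 189 CPM (log2 0.39, SE 0.06). Cct4 and Cct8 rose by the least, each at a log2 fold change of 0.29 (SE 0.06). Each of these rises was below 2-fold, and none passed a test against a change of 1.5-fold (edgeR glmTreat, adjusted p of 0.116 to 1).

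The remaining 2 ring subunits, which the choice of genes left out, were not called higher. Tcp1, the alpha subunit, had 238 and 227 CPM after cisplatin, against 214 and 223 CPM after saline, and did not pass (log2 0.09, SE 0.06; adjusted p = 0.184, edgeR quasi-likelihood). The groups did not overlap for Tcp1 in CPM or in FPKM, with 61.4 and 57.5 FPKM after cisplatin and 43.2 and 49.6 after saline. Cct6a had 226 and 217 CPM after cisplatin, against 280.1 and 278 CPM after saline, and was lower (log2 -0.33, SE 0.06; adjusted p = 3.79e-05 by the same edgeR test). Its deposited FPKM overlapped between the groups, with 64.3 and 60.7 after cisplatin and 62.5 and 68.3 after saline. Compared per length over all 8 subunits, the highest FPKM exceeded the lowest 2.16 and 2.08 times in the cisplatin libraries, against 2.28 and 2.32 times in the saline libraries. Cct6b was near the floor, with 15 and 23 counts after cisplatin and 46 and 62 after saline, and fell (log2 -1.71, SE 0.31).

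**Figure D3:**
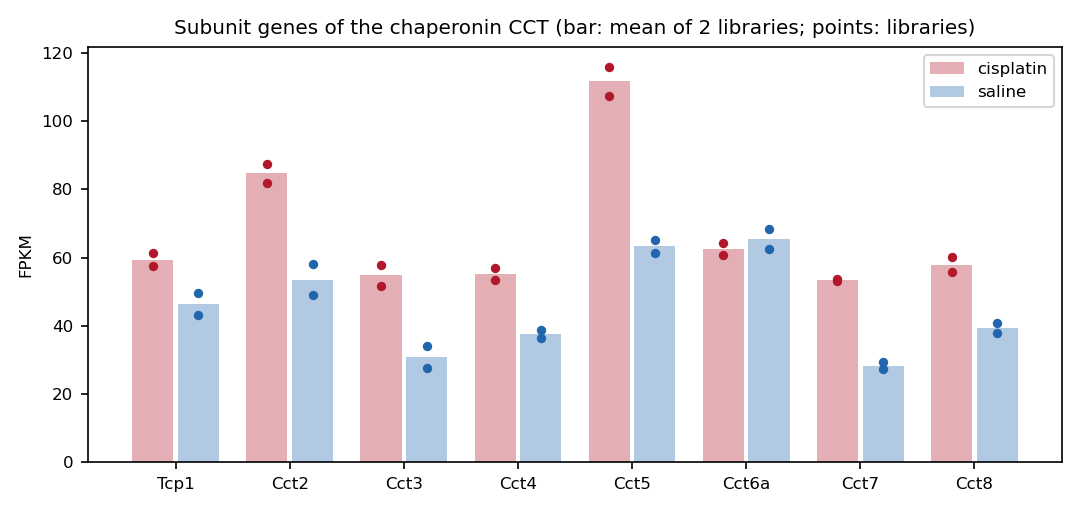
FPKM of the 8 ring subunit genes of CCT, with bars for the mean and points for the 2 libraries, cisplatin to the left of saline. Cct5 is the highest subunit after cisplatin, near 112 FPKM on average, and Cct6a is the only subunit whose cisplatin and saline points overlap.

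BAG co-chaperones, which release substrates from HSP70, rose in 4 of 6 cases, while 37.2% of all tested genes were called higher. After Bag3, described above, Bag6 showed the next largest rise. It guides membrane proteins and defective proteins to their fate and had 49.2 and 59.0 CPM after cisplatin, against 29.4 and 31.5 CPM after saline (log2 0.83, SE 0.09). Bag5 had 33.6 and 34.5 CPM after cisplatin, against 20.9 and 20.0 CPM after saline (log2 0.73, SE 0.09), and Bag2, an inhibitor of the ubiquitin ligase CHIP, had 19.1 and 19.4 CPM, against 15.5 and 13.4 CPM (log2 0.42, SE 0.11). Bag4 fell, with 47.6 and 44.9 CPM after cisplatin, against 72.9 and 71.7 CPM after saline (log2 -0.64, SE 0.06). Bag1, the most abundant of the 6, had 171 CPM in each cisplatin library, against 171 and 175 CPM after saline, and did not pass (log2 -0.02, SE 0.06), whereas library size alone gave a call as higher (log2 0.35).

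Small heat shock proteins rose in 4 of 6 tested cases, against 37.2% of all tested genes called higher, and took a larger share. Besides Hspb1 and Hspb8, Hspb2 and Hspb6, both known from muscle, were higher at low levels. Hspb2 had 3.58 and 4.70 CPM after cisplatin, against 1.08 and 1.27 CPM after saline (log2 1.80, SE 0.26), and Hspb6 had 2.66 and 3.01 CPM, against 1.35 and 1.60 CPM (log2 0.93, SE 0.26). Hspb2 shares 252 exonic bases with Cryab on the opposite strand, and Cryab itself, a small heat shock protein outside the symbol rule, had 112 and 141 CPM after cisplatin, against 34.3 and 37.7 CPM after saline. If counting ignored strand, reads of the pair cannot be told apart. In the same libraries 3 of 5 smooth muscle markers rose (Acta2, Tagln and Des), with a summed level of 187 and 191 CPM after cisplatin, against 92.5 and 92.5 CPM after saline, while Myh11 and Cnn1 did not pass. The part of muscle cells in the Hspb2 and Hspb6 values was not tested. Hspb7 did not pass (log2 -0.16, SE 0.33). Hspb11, whose product is best known from intraflagellar transport, fell, with 4.09 and 4.01 CPM after cisplatin and 9.04 and 7.87 CPM after saline (log2 -1.05, SE 0.16).

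J proteins, which carry substrates to HSP70 and start its ATP hydrolysis, were the largest family. Of 9 tested B-class genes 6 rose and 3 fell (median log2 fold change 0.86), and of 26 C-class genes 3 rose, 17 fell and 6 did not pass (median -0.54). Of 4 A-class genes only Dnaja1 passed, as lower. The difference between the classes was not tested, and of all tested genes 37.2% were called higher and 36.4% lower. With library size alone 8 C-class genes rose and 12 fell, with a median of -0.17, and in both FPKM fits 3 rose and 10 fell. C-class J proteins share little beyond the J domain, and many act at a particular organelle.

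The largest falls of all chaperones were in the C class. Dnajc6, which encodes auxilin, the factor that recruits Hspa8 to uncoat clathrin vesicles (chr4:101496648-101642799, plus strand), had 6.03 and 5.32 CPM in cisplatin libraries, against 82.2 and 86.7 CPM in saline libraries. That is a 14.9-fold lower level (log2 -3.90, SE 0.09; adjusted p = 3.43e-18, edgeR quasi-likelihood). Dnajc12, a co-chaperone of the aromatic amino acid hydroxylases, had 26.5 and 29.0 CPM after cisplatin, against 226 and 219 CPM after saline (8.01-fold lower, log2 -3.00, SE 0.07). Dnajc13, the endosomal protein RME-8, had 130.2 and 131 CPM after cisplatin, against 493 and 506 CPM after saline (3.82-fold lower, log2 -1.94, SE 0.06). In each of the 3 the lowest saline library lay more than 3 times above the highest cisplatin library.

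All 5 proximal tubule markers (Slc34a1, Lrp2, Slc5a2, Slc5a12 and Slc22a6) fell in the same libraries, with log2 fold changes of -4.71 to -1.85, as did all 4 markers of the thick limb and distal tubule (-3.18 to -0.87). The part of tubule cells in the C-class falls was not tested, and in bulk tissue fewer cells of a type and less RNA per cell cannot be told apart.

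Other C-class genes are named here after their values were seen, by the place where their products act. In mitochondria, Dnajc19, a component of the import motor, had 30.1 and 31.4 CPM after cisplatin, against 108 and 109 CPM after saline (log2 -1.82, SE 0.06), and Dnajc15 had 17.6 and 17.8 CPM, against 49.0 and 50.0 CPM (log2 -1.48, SE 0.08). Dnajc11 fell less (log2 -0.54, SE 0.07). In the endoplasmic reticulum, Dnajc3, a co-chaperone of BiP and inhibitor of eIF2 kinases, had 118 and 119 CPM after cisplatin, against 294 and 290.4 CPM after saline (log2 -1.30, SE 0.06). Dnajc10, a disulfide reductase of the same compartment, did not pass, at 116 and 113 CPM after cisplatin and 116 and 113 CPM after saline, but was called higher with library size alone (log2 0.37) and in both FPKM fits (0.27 and 0.26). Of the 7 listed members of the endoplasmic reticulum 4 fell (Dnajb11, Dnajb12, Dnajc1 and Dnajc3), 1 rose (Dnajb14) and 2 did not pass (Dnajc10 and Hspa13). For comparison, 36.4% of all tested genes were called lower and 37.2% higher. Of the genes left out for the unfolded protein response, Hspa5 (log2 0.29) and Dnajb9 (0.98) rose and Hsp90b1 fell (-0.49).

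Dnajc28 (log2 -1.86) and Dnajc22 (log2 -1.12) also fell at least 2-fold. The smaller falls, of Dnajc18, Dnajc21, Dnajc14, Dnajc1, Dnajc11, Dnajc24, Dnajc30, Dnajc2 and Dnajc7, ranged from -0.81 to -0.35. Among these, Dnajc24 was no longer called without cisplatin replicate 2 (log2 -0.35; edgeR adjusted p = 0.117) and Dnajc30 without cisplatin replicate 1 (log2 -0.27; edgeR adjusted p = 0.113). With library size alone Dnajc2, Dnajc7, Dnajc11, Dnajc24 and Dnajc30 were no longer called, Dnajc7 turning to 0.01, and in both FPKM fits these 5 and Dnajc1 and Dnajc14 were not called. Dnajc8, Dnajc25, Dnajc27, Dnajc10, Dnajc16 and Dnajc4 did not pass, at log2 values between -0.20 and 0.08.

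Rises were few in the C class. Dnajc5, the cysteine string protein of exocytosis, had 213 CPM in each cisplatin library, against 109 and 105 CPM after saline (log2 1.00, SE 0.06). Dnajc9, which also acts as a histone chaperone, had 33.4 and 27.1 CPM after cisplatin, against 17.7 and 16.4 CPM after saline (log2 0.83, SE 0.11). Dnajc17, a splicing-related J protein, rested on 91 and 140 counts after cisplatin and 59 and 81 after saline (log2 0.51; edgeR adjusted p = 0.0367). It was no longer called without cisplatin replicate 2 (log2 0.23; edgeR adjusted p = 0.444) or without saline replicate 1 (0.0639).

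In the B class, Dnajb3 and Dnajb5 showed the largest rises. Dnajb3, known from testis, had 3.33 and 2.55 CPM after cisplatin, against 1.03 and 0.533 CPM after saline (log2 1.95, SE 0.33). Dnajb5 had 9.78 and 13.3 CPM after cisplatin, against 6.22 and 3.44 CPM after saline (log2 1.29, SE 0.20). For Dnajb5 the saline libraries stood apart from each other, and the groups still did not overlap. Dnajb2 (log2 0.89, SE 0.10) rose too. Dnajb11, a lumenal co-chaperone of BiP, fell, with 56.5 and 51.0 CPM after cisplatin and 87.1 and 85.4 CPM after saline (log2 -0.68, SE 0.06). Dnajb12 (log2 -0.61, SE 0.08) and Dnajb6, an inhibitor of aggregation (log2 -0.53, SE 0.06), fell as well, although Dnajb6 did not pass in the FPKM fits (-0.25 on the scale with 0.1 added). Dnaja2 and Dnaja4 did not pass (log2 -0.11 and -0.04), and library size alone called both as higher (0.26 and 0.33).

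**Figure D4:**
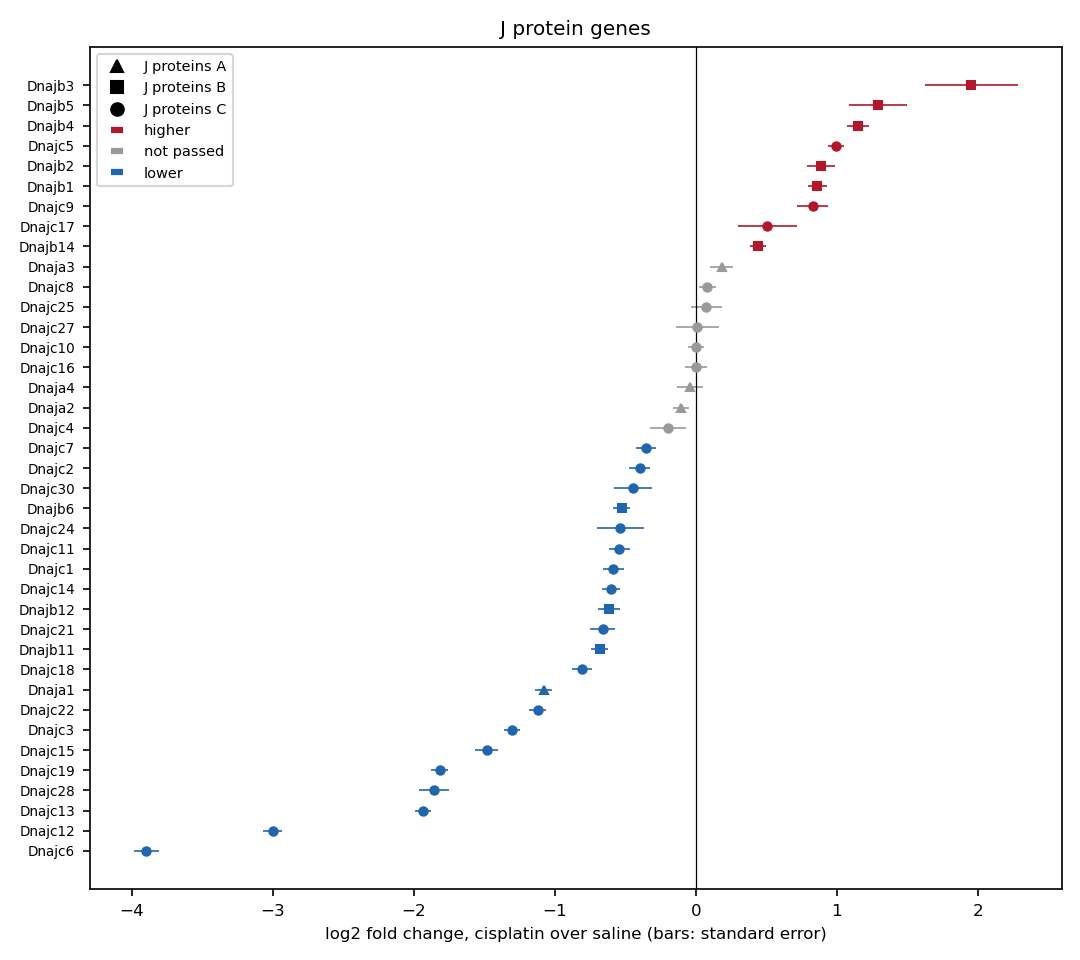
Log2 fold change with standard error of the 39 tested J protein genes, sorted from the largest rise (Dnajb3, 1.95) to the largest fall (Dnajc6, -3.90), with triangles for the A class, squares for the B class and circles for the C class. Squares gather at the top, and the lower end holds circles below Dnaja1.

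Summed over the 81 genes, FPKM was 2210 and 2114 after cisplatin, against 2077 and 2339 after saline, so that total overlapped between the groups. In TMM-scaled CPM the sum was 8338 and 8123 after cisplatin, against 9807 and 10036 after saline, and did not overlap. Of the FPKM sum, HSP90 formed 17.5 and 17.7% after cisplatin, against 8.72 and 8.24% after saline, and the CCT genes of the list 19.6 and 19.1%, against 11.6 and 11.4%. Small heat shock proteins formed 2.07 and 2.20% after cisplatin, against 0.587 and 0.54% after saline. Shares were smaller after cisplatin for HSP60 and HSP10 (7.76 and 7.59%, against 13.5 and 13.3%), for C-class J proteins (11.4 and 11.8%, against 19.1 and 18.8%) and for HSP70 with HSP110 (27.2 and 26.8%, against 34.7 and 35.8%). No test is given for these sums, because an exact permutation of 2 against 2 libraries cannot go below a two-sided p of 0.333.

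**Figure D5:**
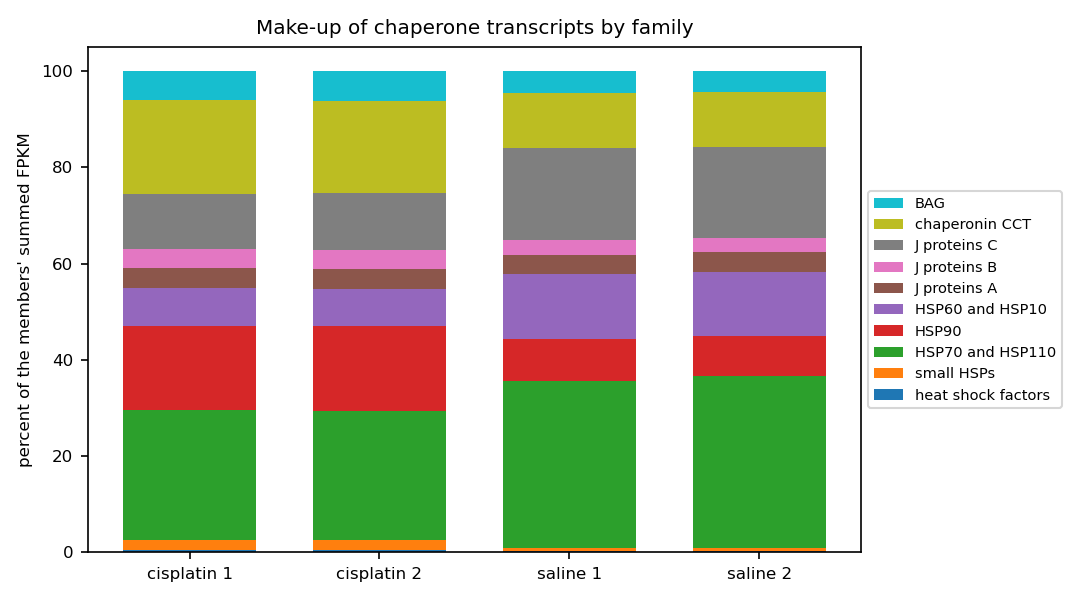
Share of each chaperone family in the summed FPKM of the 81 genes, with 1 stacked bar per library, the 2 cisplatin libraries on the left and the 2 saline libraries on the right. The HSP90, CCT and small heat shock protein segments are larger in both cisplatin bars, and the HSP60 and HSP10 and C-class segments are smaller.

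Genes that work with these chaperones but lie outside the symbol rule moved in both directions. Of 33 listed co-chaperones, chaperonin partners and further HSF1 targets, 11 rose, 11 fell and 11 did not pass; their median log2 fold change was 0.01. The 33.3% higher and 33.3% lower lie near the 37.2% and 36.4% of all tested genes. Library size alone gave 21 higher and 3 lower. The immunophilins of HSP90 moved in opposite directions. Fkbp5, which is induced by glucocorticoids and lowers the affinity of their receptor, had 143 and 146 CPM after cisplatin, against 49.4 and 48.3 CPM after saline (log2 1.57, SE 0.06). Fkbp4, which favours receptor activity, had 65.8 and 70.0 CPM after cisplatin, against 218 and 203 CPM after saline (log2 -1.63, SE 0.06).

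St13, the HSP70-interacting protein Hip, had 146 and 147 CPM after cisplatin, against 294 and 292 CPM after saline (log2 -1.002, SE 0.058), and Stip1, the adaptor Hop between HSP70 and HSP90, did not pass (log2 -0.04, SE 0.06; edgeR adjusted p = 0.563). Over the 14 HSP90 co-chaperones 5 rose, 5 fell and 4 did not pass, and over the 5 HSP70 co-chaperones 2 rose, 2 fell and 1 did not pass. Of the 10 chaperonin partners, which include prefoldin, 2 rose (here Pfdn4 is a prefoldin subunit and Txndc9 a CCT regulator), 3 fell and 5 did not pass. Among further HSF1 targets, Cryab (log2 1.81, SE 0.08) and Serpinh1, the collagen chaperone HSP47 (log2 1.11, SE 0.06), rose, and the polyubiquitin gene Ubb fell (log2 -0.24, SE 0.07). In the same libraries 3 of 4 fibroblast markers rose, with a summed level of 537 CPM in each cisplatin library, against 170.3 and 177 CPM after saline, and their part in the Serpinh1 value was not tested.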

How the data were processed

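The authors deposited raw read counts per gene (29190 genes) and FPKM values (29157 genes) for 4 libraries made from ribosome-depleted total RNA and sequenced as paired reads of 150 nt, per the labels' protocols. bcl2fastq, TopHat2, edgeR and GRCm38 are named per the submitters' processing notes among other tools. The sources used here do not name the program that counted reads, whether it used strand or how it treated reads fitting several genes. Exons of 25 of the 81 chaperone genes overlap exons of a gene on the opposite strand, and the text names only some of these. Counts of the whole table were filtered with filterByExpr, scaled by TMM and tested with edgeR 4.0.16 (R 4.3.3) by the quasi-likelihood F test with Benjamini-Hochberg adjustment over 17419 genes at 0.05. The standard error was the size of the log2 fold change over the root of F. TMM factors were 1.15 and 1.12 after cisplatin and 0.861 and 0.90 after saline. Replicate pairs did not agree within sampling noise (chi-square over degrees of freedom 11.5 for cisplatin and 36.6 for saline). The labels do not say that libraries came from separate animals, so p-values measure the spread between these libraries, which may be technical. A count floor of 3 covers counting error only.

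The members and lists were chosen with earlier results of these data known. The text names Hsf1, Hsf2, 15 heat-inducible members, the Cct and Bag genes, and in each family up to 3 rises and 3 falls with a mean of at least 1 CPM; other members are named for completeness. Coordinates and overlaps came from GENCODE M21, promoters from RefSeq (GRCm38.p6). Levels of different genes were compared only in FPKM, the authors' values per length, which carry no composition factor. Alternatives used DESeq2 1.42.0, limma 3.58.1 on log2(FPKM + 0.1) and log2(FPKM + 1), other scalings and filters, glmTreat, each library left out in turn, and a replicate block. The edgeR script was tested on simulated data in which 50 of 17419 genes were changed at each fold. There it recovered 16% of tested changes of 1.25-fold, 57.1% of 1.5-fold, 79.2% of 2-fold and 98% of 4-fold. Of the simulated calls 3.15% were false. In the data 73.6% of tested genes were called, a far larger part than was changed in the simulation. These rates therefore need not hold for the data. Changes below 2-fold can be missed, and a gene that did not pass is not shown to be unchanged. Plots used Python 3.11.15 and matplotlib 3.10.9.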

Additional observations from a re-analysis of the deposited data

How the results depend on the processing

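The numbers of chaperones called stayed between 31 and 34 higher and between 28 and 31 lower when 1 library was left out, and the 33 co-chaperone and assembly genes gave 9 to 13 higher and 10 to 11 lower. Over all tested genes these fits gave 5622 to 6237 higher and 5868 to 6267 lower calls. The median log2 fold change of the chaperones ranged from -0.046 to 0.0043 in these fits, in which the lone library of a group is assumed to vary like the other group. Over the 15 alternatives other than glmTreat, 31 chaperones were higher and 19 lower in every fit. Several of these fits raise the chaperone median, as given below, so that falls could be lost more easily than rises.

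The chaperone median was 0.36 with library size alone, 0.12 with upper-quartile scaling, 0.018 with a filter of 1 CPM in 2 libraries and 0.045 in the fit on protein-coding genes alone. On log2(FPKM + 0.1) and log2(FPKM + 1) it was 0.26 and 0.19, with 19 chaperones lower in both fits, 4 co-chaperone and assembly genes lower in both, and 3804 and 3784 of all genes lower. With library size alone 4207 of all genes were lower, against 6333 in the main fit, and 21 co-chaperone and assembly genes were higher and 3 lower. Calls that held in every fit were not counted over all tested genes. The 31 higher and 19 lower chaperones of every fit thus have no background beside them. Among the chaperones named by rule, that scaling turned the sign of Bag1 (0.35), Dnaja2 (0.26) and Dnaja4 (0.33), which became called rises. That scaling also turned the sign of Hsf2 (0.13) and Hspa4l (0.12), which lost their calls. Among the others it also turned Hspa4 (0.29), Hspa13 (0.29) and Dnajc16 (0.36) to called rises and Dnajc7 (0.01) to no call. The FPKM fits turned the sign of Hsf2 (0.036 and 0.031) and Hspa4l (0.023 and 0.021), neither of them called there. The cause was not tested.

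Against a change of 1.5-fold, glmTreat called 19 chaperones higher and 16 lower, with 3805 and 3594 over all genes and 5 and 2 of the co-chaperone and assembly genes. Against 2-fold it called 11 and 10, with 2156 and 2089 over all genes and 3 and 1 of the co-chaperone and assembly genes, fewer by the construction of the test.

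With the replicate number as a block, 34 chaperones were higher and 31 lower, Dnaja3 being added as higher (edgeR adjusted p = 0.00626). The numbers do not pair the libraries, since deviations of same-numbered libraries correlated at -0.02. DESeq2 no longer called Dnajc17 (adjusted p = 0.165) or Hsf2 (adjusted p = 0.117). Depth limited the 4 untested genes.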
